A study of Mus musculus with 4 samples.

Results

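The 37 genes described here encode the glucose transporters, the enzymes of glycolysis, the enzymes and carriers that handle pyruvate and lactate, the hypoxia-inducible factor HIF-1α with its regulators, and a set of hypoxia-induced genes. They were chosen by symbol, each matched exactly to an entry of the expression table, and all 37 were found among its 24497 mouse entries. RNA-seq had been made from mouse acute myeloid leukemia (AML) cells started from bone marrow hematopoietic stem cells. The cells of 2 libraries were of wild-type (WT) origin and those of the other 2 were labelled Tet2 KO, from Tet2-/- mice lacking exons 8 to 10 of Tet2, a dioxygenase that oxidises 5-methylcytosine. Both groups carried NRAS and AE9a, a truncated AML1-ETO fusion, and both were cultured in RPMI 1640 that held the cytokines SCF (50 ng/ml), IL-3 and IL-6 (10 ng/ml) and the selection drugs G418 (1 mg/ml) and puromycin (2 µg/ml). The sources used here give neither the oxygen level of the cultures, nor the ages of the mice, nor whether replicates were separate animals or cultures. The p-values therefore reflect only how these libraries vary, and that variation may be technical.

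Glycolysis converts glucose to pyruvate, and proliferating cells reduce much of that pyruvate to lactate and export it. When oxygen falls, prolyl hydroxylases stop marking HIF-1α for destruction by the VHL ubiquitin ligase, and the stabilised protein binds short DNA elements next to genes for glucose uptake, glycolysis and adaptation to low oxygen. HIF-1α is controlled mainly as a protein, so its transcript need not follow its activity. Hematopoietic stem cells reside in a marrow of low oxygen and are known for their reliance on glycolysis.

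Values are TPM, transcript abundances corrected for length and scaled to the same total in every library. Read depth is unknown, because TPM do not keep it. Changes are differences of log2(TPM + 1), Tet2 KO minus WT, from limma with its moderated standard error (SE). A gene was called higher or lower at a Benjamini-Hochberg adjusted p under 0.05 over the 11837 genes with at least 1 TPM in 2 or more libraries. Of the members 35 passed that filter. Neuronal enolase (Eno2, 0.17 to 0.33 TPM) and lactate dehydrogenase B (Ldhb, 0.13 to 0.36 TPM) did not.

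Across all kept genes 3606 were called, 2237 higher and 1369 lower, and libraries correlated at r = 0.992 within groups and 0.979 to 0.982 between them. Tet2 transcript was present in every library (35.0 and 40.0 TPM in WT, 53.5 and 52.8 in Tet2 KO), and a value for the whole gene cannot check a deletion of 3 exons. Of 10 myeloid progenitor markers 9 were kept, of which 5 were called higher (Ptprc, Kit, Cd34, Mpo and Cebpa) and 3 lower (Spi1 by -0.26, Itgam by -0.39 and Elane by -1.28). Fewer were kept of the lymphoid (1 of 13), erythroid (3 of 19) and stromal and endothelial markers (3 of 12) in the table. Of the 11 kept mast cell and basophil markers 7 were lower and 1 higher (Cpa3), with a median change of -0.95, and the list summed to 2131 and 2212 TPM in WT and to 2267 and 2209 in Tet2 KO, most of it Cpa3. The 21 granulocyte markers summed to 52744 and 52330 TPM in WT and to 26911 and 27263 in Tet2 KO, and 20 of them were called lower. The 20 macrophage markers summed to 13156 and 12834 TPM in WT and to 7534 and 7423 in Tet2 KO (8 of 16 kept called lower, 3 higher). Marco and Timd4 were at 0 throughout. In such bulk samples a smaller number of cells of a type and less RNA per cell cannot be told apart, and the part of these markers in the changes below was not tested. The ribosomal RNA precursor Rn45s stood at 5704 and 4350 TPM in WT and at 14263 and 8813 in Tet2 KO. With TPM rescaled without it and without the ERCC spike-ins, 15 members were higher and 2 lower, the same counts as with the deposited TPM given below.

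Hypoxia-inducible factors bind the core ACGTG or GCGTG. RefSeq promoters on GRCm38.p6 were found for 34 of the 37 genes, and the 250 bases before each start were searched on both strands for that core, for the longer TACGTG, which contains it, and for CACGTG, the E-box of MYC-type factors, which also contains it. The core was in at least 1 promoter of 30 of 34 members (88.2%), against 61.2% of the 9071 kept genes with a promoter in the table. It was in all 13 matched members called higher, in both called lower (Hk2 and Pfkfb4) and in 14 of 17 that were not called (82.4%), so it was common in called and uncalled members alike. TACGTG was in 5 of 34 members (14.7%, against 3.90% of kept genes), namely Pgam1, Pdk3, Egln1, Ankrd37 and P4ha1, and CACGTG in 6 of 34 (17.6%, against 10.0%). The promoters of 5 genes that were higher and of Pfkfb4, which was lower, are shown 5′ to 3′. The core on either strand is in capitals. They are examples without an uncalled member, so the number of matches cannot be set against the changes from them. Among genes not shown, a promoter of the uncalled Ldha held 5 matches and that of the uncalled Pgam1 held 3. The promoter of Hk2, called lower, held 2, and each promoter of Aldoc, called higher, held 1.
Pgk1, chrX:106186850-106187099, plus strand: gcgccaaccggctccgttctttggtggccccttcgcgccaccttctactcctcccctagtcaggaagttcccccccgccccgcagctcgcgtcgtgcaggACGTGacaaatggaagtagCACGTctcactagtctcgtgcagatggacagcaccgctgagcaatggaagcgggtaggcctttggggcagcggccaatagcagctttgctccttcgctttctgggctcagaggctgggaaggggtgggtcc
Ankrd37, chr8:45999851-46000100, minus strand: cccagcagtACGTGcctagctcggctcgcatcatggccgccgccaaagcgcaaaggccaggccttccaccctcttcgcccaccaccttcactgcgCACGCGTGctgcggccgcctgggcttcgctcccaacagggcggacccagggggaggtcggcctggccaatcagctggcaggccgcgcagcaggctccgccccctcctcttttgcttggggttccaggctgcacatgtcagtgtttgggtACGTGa
P4ha1, chr10:59323046-59323295, plus strand: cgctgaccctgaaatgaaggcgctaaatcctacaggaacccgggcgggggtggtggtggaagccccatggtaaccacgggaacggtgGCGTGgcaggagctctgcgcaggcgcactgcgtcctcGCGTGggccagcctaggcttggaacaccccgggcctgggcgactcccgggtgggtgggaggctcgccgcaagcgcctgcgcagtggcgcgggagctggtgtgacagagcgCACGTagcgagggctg
Bnip3, chr7:138909507-138909756, minus strand: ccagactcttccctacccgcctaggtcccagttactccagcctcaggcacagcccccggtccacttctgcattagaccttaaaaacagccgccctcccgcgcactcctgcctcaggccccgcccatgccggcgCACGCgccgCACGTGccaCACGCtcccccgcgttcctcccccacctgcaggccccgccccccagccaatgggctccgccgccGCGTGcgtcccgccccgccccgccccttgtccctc
Egln3, chr12:54203875-54204124, minus strand: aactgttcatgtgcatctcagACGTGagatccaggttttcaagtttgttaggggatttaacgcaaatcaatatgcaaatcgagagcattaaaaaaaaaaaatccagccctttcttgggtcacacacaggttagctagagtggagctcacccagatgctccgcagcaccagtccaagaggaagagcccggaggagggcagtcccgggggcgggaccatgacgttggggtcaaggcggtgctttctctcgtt
Pfkfb4, chr9:108991652-108991901, plus strand: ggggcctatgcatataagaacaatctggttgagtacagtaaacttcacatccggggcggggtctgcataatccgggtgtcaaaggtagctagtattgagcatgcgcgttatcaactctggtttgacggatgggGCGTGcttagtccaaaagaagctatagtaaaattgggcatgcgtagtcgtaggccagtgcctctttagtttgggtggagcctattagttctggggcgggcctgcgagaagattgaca
Bnip3 held 5 matches and Ankrd37 held 4, of which 2 were of the longer form. Pgk1 held 2, P4ha1 held 3, and Egln3 and Pfkfb4 held 1 each. An E-box adds a core match on each strand, so matches can overlap. A match is a string of letters, not a bound site, and no binding was measured.

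**Figure D1:**
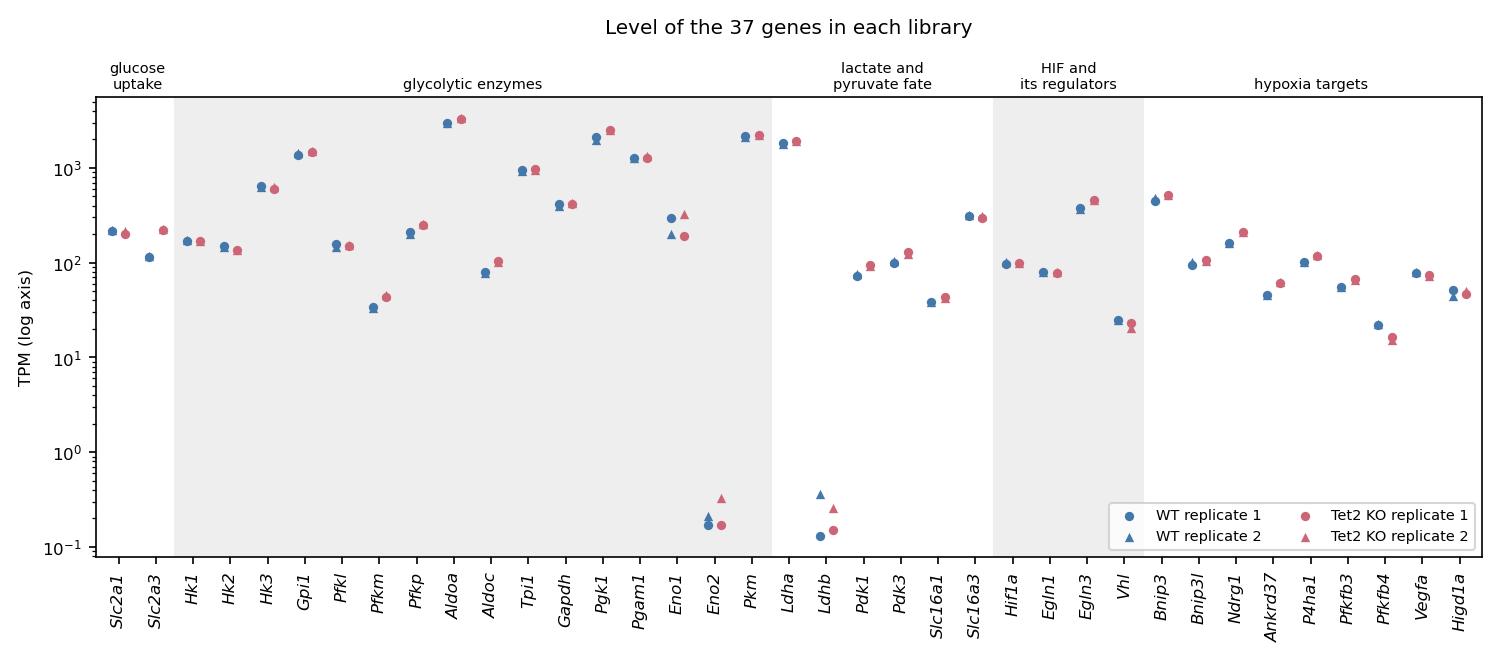
Level of each of the 37 genes in each of the 4 libraries, in TPM on a log axis, ordered by role, with blue for WT, red for Tet2 KO, circles for replicate 1 and triangles for replicate 2. Most replicates lie on top of each other, Slc2a3 shows the widest gap between the groups, and Eno1 shows replicates that lie apart within both groups.

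Of the 35 kept members, 15 were higher and 2 lower in Tet2 KO, and 18 were not called. Of all kept genes 30.5% were called, 18.9% higher and 11.6% lower. The groups did not overlap for 22 members with Tet2 KO above WT and for 6 with Tet2 KO below, where 42.2% and 26.5% of all kept genes did so (68.6% in either direction). The median change was 0.08 over the members and 0.04 over all kept genes. The counts depended on how libraries were scaled to each other. With the summed ERCC spike-ins set equal, the median of all genes moved by -0.11 to -0.07 and that of the members to -0.04. Then 3 members were higher (Slc2a3, Pfkm and Ankrd37) and 2 lower (Pfkfb4 and Vhl), where 17.8% of all genes were called, 5.33% higher and 12.5% lower. With trimmed-mean scaling 12 members were higher and 4 lower, where 29.9% of all genes were called, 14.5% higher and 15.4% lower. The share of higher calls among all calls was 62.0% as deposited, 48.6% with trimmed-mean and 29.9% with spike-in scaling, and 51.0% with TPM rescaled without ERCC and granulocyte markers. The spike-ins held 2.98% and 3.30% of TPM in WT and 3.41% and 3.39% in Tet2 KO, so the WT libraries differed from each other in this respect. Without Tet2 KO replicate 1 the number of called members was 7, and without Tet2 KO replicate 2 it was 9.

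Both pathway genes and hypoxia targets had more members called higher than lower with the deposited scaling. The split is by role and not by response to HIF, since Hk2 and Pdk1 among the pathway genes are known HIF targets too. Among 22 kept genes of glucose uptake, glycolysis and pyruvate or lactate handling, 9 were higher and 1 lower, with a median change of 0.07. Among the 9 hypoxia targets 5 were higher and 1 lower, with a median of 0.16. Over all kept genes 18.9% were called higher and 11.6% lower. Spike-in scaling gave medians of -0.04 and 0.05, and quantile scaling gave 0.01 and 0.19, while trimmed-mean scaling gave 0.03 and 0.12. The sign of the pathway median thus depended on the scaling, and the median of all kept genes moved with it. That median was 0.041 as deposited, -0.068 with spike-in, 0.015 with quantile and -0.001 with trimmed-mean scaling. The difference between the 2 medians was not tested, since genes are not replicates.

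**Figure D2:**
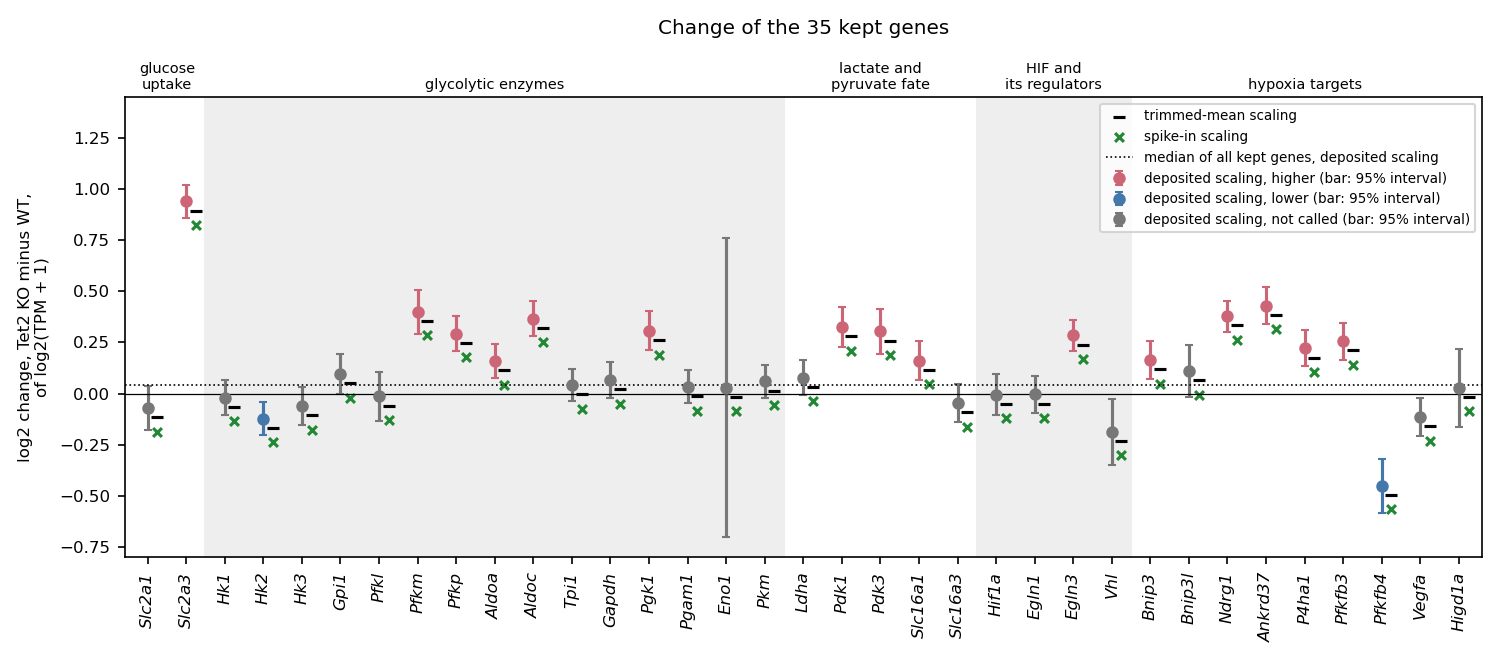
Change of each kept member on the log2(TPM + 1) scale, Tet2 KO minus WT, with its 95% interval from limma (red, called higher; blue, called lower; grey, not called), beside the value with trimmed-mean scaling (black dash) and spike-in scaling (green cross). The dotted line is the median of all kept genes. Slc2a3 at 0.94 and Pfkfb4 at -0.45 stand at the ends, and the other scalings shift all members down by a like amount.

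The largest change among the members was in glucose uptake. Slc2a3, which encodes the high-affinity glucose transporter GLUT3, had 115 and 117 TPM in WT and 221 and 225 TPM in Tet2 KO. All Tet2 KO values lay far above WT, and the gene rose 1.93-fold (log2 change 0.94, SE 0.032, adjusted p = 1.1e-04). The call held under all 17 alternatives, with changes from 0.82 to 0.95. The gene spans chr6:122727809-122801640 on the minus strand (GRCm38). Slc2a1, which encodes the widespread basal transporter GLUT1, had 215 and 219 TPM in WT and 200 and 214 TPM in Tet2 KO. It was not called (-0.07, 95% interval -0.18 to 0.03, adjusted p = 0.26).

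The balance between the transporters therefore differed between the groups. Slc2a3 made up 34.9% and 34.7% of their summed TPM in WT and 52.5% and 51.3% in Tet2 KO, a difference of 17.1 percentage points. A share within a family does not change when each library is multiplied by its own factor, as with spike-in and trimmed-mean scaling. Quantile scaling is not of that kind, and shares were not computed under it. An exact permutation test (two-sided, n = 2 per group) gave p = 0.333, the smallest it can give, for the Slc2a3 share. The same holds for every other share whose groups did not overlap.

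Hexokinases, which trap glucose by phosphorylation, were led by Hk3, the isozyme typical of myeloid cells, at 651 and 626 TPM in WT and 601 and 624 TPM in Tet2 KO (-0.06, 95% interval -0.15 to 0.03). Hk3 held 66.0% to 67.1% of hexokinase TPM in the 4 libraries, with overlapping groups. Hk1, the ubiquitous isozyme, was likewise not called (169 and 175 against 169 and 171 TPM). Hk2, the inducible isozyme bound to mitochondria and itself a known HIF target, was called lower at 149 and 147 against 135 and 137 TPM (-0.12, SE 0.032, adjusted p = 0.039). That small fall was lost without any single library (adjusted p from 0.057 without WT replicate 2 and 0.092 without WT replicate 1 to 0.17 and 0.22 without Tet2 KO replicates 2 and 1) and under 4 other settings. None of the 3 hexokinases was called higher.

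Phosphofructokinase catalyses the committed step of glycolysis, and 2 of its 3 subunits rose. Pfkp, the platelet-type subunit and the most abundant here, had 208 and 203 TPM in WT and 248 and 256 TPM in Tet2 KO (0.29, SE 0.034, adjusted p = 0.0035). Pfkm, the muscle-type subunit, had 34.0 and 33.4 TPM in WT and 43.7 and 45.7 TPM in Tet2 KO (0.40, SE 0.043, adjusted p = 0.0028). Both groups were well apart for these genes, the Pfkm call held under all 17 alternatives, and the Pfkp call was lost with spike-in scaling (0.18, adjusted p = 0.18) and without Tet2 KO replicate 2 (adjusted p = 0.055). Pfkl, the liver-type subunit, overlapped at 159 and 146 against 149 and 153 TPM (-0.01, 95% interval -0.13 to 0.10). Its share of the 3 subunits was 39.6% and 38.2% in WT and 33.8% and 33.6% in Tet2 KO, while Pfkp went from 51.9% and 53.0% to 56.3% and 56.4%.

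Phosphofructokinase is switched on by fructose 2,6-bisphosphate, whose level is set by the PFKFB enzymes, and the 2 members that make it changed in opposite directions. Pfkfb3, the isoform with the strongest kinase activity, had 55.0 and 55.6 TPM in WT and 66.7 and 65.6 TPM in Tet2 KO (0.25, SE 0.036, adjusted p = 0.0061). Pfkfb4 had 22.0 and 22.3 TPM in WT and 16.4 and 15.4 TPM in Tet2 KO (-0.45, SE 0.053, adjusted p = 0.0035), the largest fall of the set. Both genes are known hypoxia targets, and Pfkfb4 held 28.5% and 28.7% of their sum in WT and 19.7% and 19.1% in Tet2 KO. The Pfkfb4 call held under all 17 alternatives, whereas the Pfkfb3 call was lost with spike-in scaling (0.14, adjusted p = 0.23) and without Tet2 KO replicate 1 or 2 (adjusted p = 0.074 and 0.061). Pfkfb1 and Pfkfb2 stayed between 2.93 and 8.47 TPM and were not called.

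**Figure D3:**
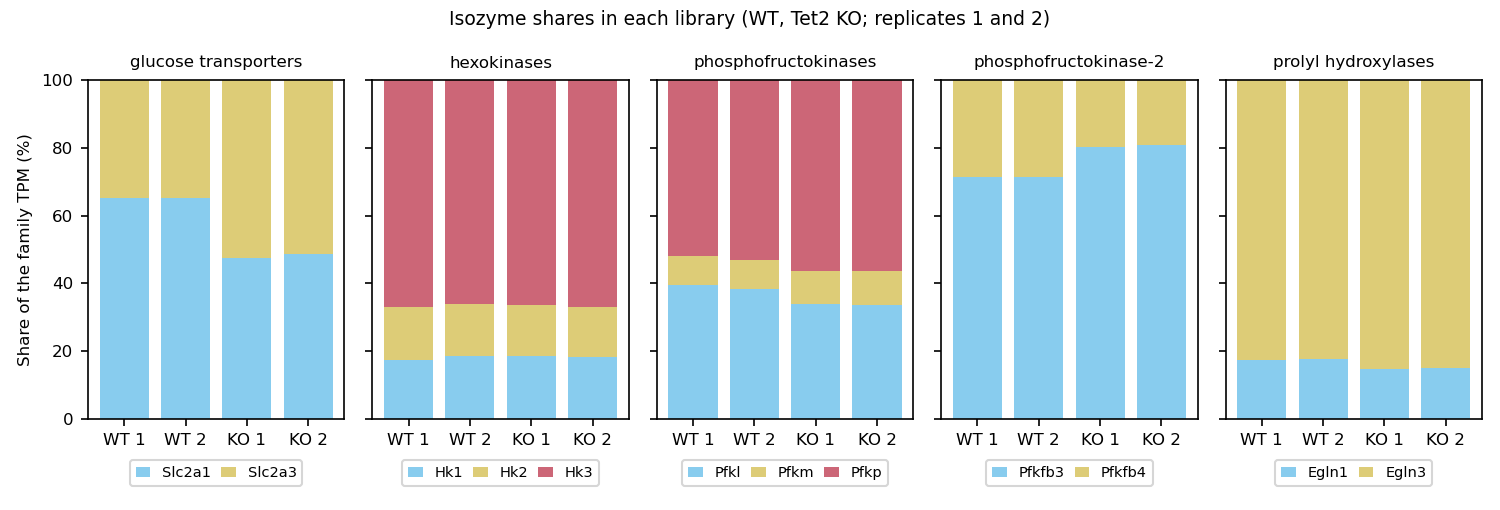
Share of the summed TPM of 5 enzyme or transporter families held by each isozyme, in percent, with 1 bar per library (WT and Tet2 KO, replicates 1 and 2). Slc2a3 passes Slc2a1 only in the Tet2 KO libraries, Pfkfb4 shrinks beside Pfkfb3, and the hexokinase shares of Hk1 and Hk3 overlap between the groups.

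Enzymes of the later steps had very high levels, and most did not pass the test. Aldolase A (Aldoa) was the most abundant member at 3008 and 2966 TPM in WT and 3296 and 3373 TPM in Tet2 KO. It was called higher by a small amount (0.16, SE 0.033, adjusted p = 0.020), but that call was lost under 8 of 17 alternatives, and with quantile scaling the change was -0.01. Without Tet2 KO replicate 1 or 2 its adjusted p was 0.14 and 0.19. Aldolase C (Aldoc), a brain-type isozyme present at a far lower level, had 79.6 and 78.8 TPM in WT and 103 and 102 TPM in Tet2 KO (0.37, SE 0.034, adjusted p = 0.0017), a rise lost only with spike-in scaling (0.25, adjusted p = 0.059).

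Phosphoglycerate kinase (Pgk1), which makes the first ATP of the pathway, had 2096 and 1988 TPM in WT and 2528 and 2521 TPM in Tet2 KO. The groups were clear of each other and the gene rose (0.31, SE 0.038, adjusted p = 0.0042), although not with spike-in scaling (0.19, adjusted p = 0.26) or without Tet2 KO replicate 1 or 2 (adjusted p = 0.069 and 0.066). It spans chrX:106187100-106203699 on the plus strand. Glucose-6-phosphate isomerase (Gpi1), triose-phosphate isomerase (Tpi1), glyceraldehyde-3-phosphate dehydrogenase (Gapdh), phosphoglycerate mutase (Pgam1) and pyruvate kinase (Pkm) each had Tet2 KO values above WT, with changes from 0.03 to 0.09, and none was called. Changes of that size are near the median of all kept genes. Gpi1 was called without WT replicate 2 (0.13, adjusted p = 0.048).

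Enolase is given apart, because its main transcript shares most of its sequence with another entry of the table. Eno1 had 296 and 202 TPM in WT and 189 and 328 TPM in Tet2 KO. Its replicates differed by 0.67 on the log2 scale on average, the third widest spread among 1517 kept genes with at least 100 TPM, whose median spread was 0.046. Of the 50-base windows of its longest transcript, 70.5% also occur letter for letter in Eno1b, an entry with 2402 and 2449 TPM in WT and 2542 and 2434 TPM in Tet2 KO. Summed with Eno1b, the values were 2698 and 2651 TPM in WT and 2731 and 2762 TPM in Tet2 KO. Eno1b made up 88.1% to 93.1% of that sum, which was chosen after seeing the data, and the change of the sum was 0.04 (95% interval -0.04 to 0.12, adjusted p = 0.41). How reads were divided between the copies was not measured, and single values of Eno1 are uncertain in both groups.

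Other members share sequence with copies too. Exact 50-base matches to transcripts of other genes covered 82.5% of Gapdh, 68.0% of Pgk1, 41.5% of Pgam1 and 34.4% of Pkm, mostly in processed pseudogenes. Gapdh, with 398 to 429 TPM, stood below its neighbours in the pathway, and summing it with the 3 copies in the table moved it only to 405 to 438 TPM. The level of Gapdh against other enzymes is thus uncertain.

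**Figure D4:**
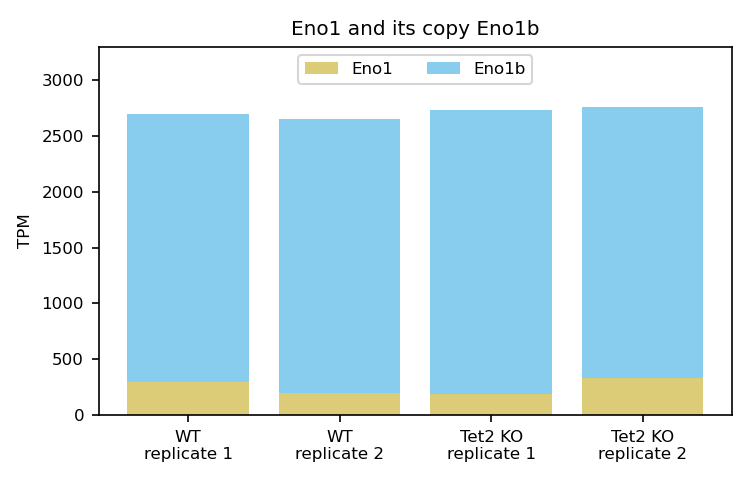
TPM of Eno1 and of its near-identical copy Eno1b, stacked, in each of the 4 libraries. The Eno1 part varies between replicates of a group, while the stacked total stays between 2651 and 2762 TPM.

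Lactate dehydrogenase A (Ldha), which reduces pyruvate to lactate, was abundant and not called, with 1855 and 1791 TPM in WT and 1928 and 1920 TPM in Tet2 KO (0.08, 95% interval -0.01 to 0.16). Ldha made up almost all lactate dehydrogenase transcript in each library, since Ldhb was near 0. Of the 4 kinases that switch off pyruvate dehydrogenase, the members Pdk1 and Pdk3 rose, Pdk2 was not called (1.71 to 3.33 TPM, adjusted p = 0.093) and Pdk4 was near 0. Pdk1, a classic HIF-1 target, had 72.9 and 75.7 TPM in WT and 94.7 and 91.9 TPM in Tet2 KO (0.32, SE 0.039, adjusted p = 0.0038). Pdk3 had 100.3 and 105 TPM in WT and 130 and 123 TPM in Tet2 KO (0.30, SE 0.045, adjusted p = 0.0068).

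Pdk1 held 42.0% to 42.7% of the sum of Pdk1 and Pdk3 in the 4 libraries, with overlapping groups. Both calls were lost with spike-in scaling (Pdk1 0.21, Pdk3 0.19) and without Tet2 KO replicate 1 (Pdk1 adjusted p = 0.056, Pdk3 adjusted p = 0.072). Of 12 other kept genes for pyruvate entry and pyruvate dehydrogenase, 3 were higher and none lower. The shares over all kept genes were 18.9% and 11.6%. The 3 higher genes were pyruvate carboxylase (Pcx, 0.70), the catalytic subunit Pdha1 (0.23) and the activating phosphatase Pdp1 (0.37). A kinase and an opposing phosphatase were thus higher in the same libraries.

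Lactate leaves the cell through monocarboxylate transporters. Slc16a3, which encodes the exporter MCT4, was the main one at 310 and 321 TPM in WT and 299.8 and 311 TPM in Tet2 KO (-0.05, 95% interval -0.14 to 0.05), with overlapping groups. Slc16a1, which encodes MCT1, had 38.3 and 38.5 TPM in WT and 43.1 and 42.9 TPM in Tet2 KO (0.16, SE 0.038, adjusted p = 0.029). The Slc16a1 call was lost under 9 of 17 alternatives, among them leaving out any single library (WT replicates 1 and 2, adjusted p = 0.080 and 0.063; Tet2 KO replicates 1 and 2, 0.16 and 0.15). Bsg, the chaperone of both transporters, rose by 0.17 (adjusted p = 0.014).

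Among transcripts of the oxygen-sensing machinery, a hydroxylase was the only member called. Hif1a had 96.9 and 102 TPM in WT and 98.1 and 99.8 TPM in Tet2 KO (-0.01, 95% interval -0.11 to 0.09). Egln1, which encodes PHD2, the main prolyl hydroxylase of HIF-1α, was not called either (79.7 and 79.4 against 78.0 and 80.7 TPM). Egln3, which encodes PHD3 and is itself induced by HIF, had 377 and 369 TPM in WT and 455 and 455 TPM in Tet2 KO (0.28, SE 0.030, adjusted p = 0.0027). Egln3 was the dominant hydroxylase transcript of the pair, at 82.3% to 82.5% of their sum in WT and 84.9% to 85.4% in Tet2 KO. Its call was lost with spike-in scaling (0.17, adjusted p = 0.21) and without Tet2 KO replicate 1 (adjusted p = 0.052).

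Vhl, the substrate receptor of the ligase that destroys hydroxylated HIF-1α, was below WT in both Tet2 KO libraries (24.7 and 25.1 against 23.0 and 20.6 TPM) but was not called (-0.19, SE 0.064, adjusted p = 0.077). It passed as lower with 2 other scalings, by -0.30 with spike-ins (adjusted p = 0.042) and by -0.23 with trimmed means (adjusted p = 0.046). Of 18 other regulators, all kept, 1 was higher and 1 lower, against 18.9% and 11.6% of all kept genes. Arnt, the constitutive partner of HIF-1α, was higher by 0.15 (adjusted p = 0.048), and Epas1, which encodes HIF-2α, was lower at 1.79 and 1.78 TPM against 2.76 and 3.32 TPM in WT (-0.53, adjusted p = 0.023). Epas1 was thus far less abundant than Hif1a in all 4 libraries.

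Among the hypoxia targets, Ankrd37, an ankyrin-repeat gene widely used as a HIF reporter transcript, had the largest rise. It had 45.9 and 45.4 TPM in WT and 61.6 and 62.2 TPM in Tet2 KO (0.43, SE 0.036, adjusted p = 0.0014), and the call held under all 17 alternatives. Ndrg1, a stress-responsive differentiation gene, had 162 and 163 TPM in WT and 211 and 212 TPM in Tet2 KO (0.38, SE 0.030, adjusted p = 0.0012). Both groups were tight and well apart for these genes, and the Ndrg1 call was lost only with spike-in scaling (0.26, adjusted p = 0.050). Ankrd37 spans chr8:45996902-46005707 and Ndrg1 spans chr15:66929318-66969640, both on the minus strand.

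P4ha1, a subunit of collagen prolyl 4-hydroxylase, had 103 and 101 TPM in WT and 117 and 121 TPM in Tet2 KO (0.22, SE 0.035, adjusted p = 0.0090). Bnip3, a receptor for removal of mitochondria, had 452 and 477 TPM in WT and 525 and 517 TPM in Tet2 KO (0.16, SE 0.037, adjusted p = 0.026). The groups did not overlap for either gene, yet both calls depended on the setting. The P4ha1 call was lost with spike-in scaling (0.10, adjusted p = 0.40) and without Tet2 KO replicate 1 or 2 (adjusted p = 0.069 and 0.093). The Bnip3 call was lost under 8 of 17 alternatives, including without WT replicate 1 (0.13, adjusted p = 0.054) and without Tet2 KO replicate 1 or 2 (adjusted p = 0.18 and 0.14).

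Not every target was higher. Vegfa, the angiogenic growth factor and a standard HIF target, had 78.8 and 79.7 TPM in WT and 74.4 and 71.7 TPM in Tet2 KO. It was not called (-0.12, SE 0.037, adjusted p = 0.068), but it passed as lower with trimmed-mean scaling (-0.16, adjusted p = 0.028) and with TPM rescaled without granulocyte markers (-0.15, adjusted p = 0.037). Bnip3l, which acts like Bnip3, had 93.6 and 102 against 107 and 104 TPM (0.11, 95% interval -0.02 to 0.24) and passed only without WT replicate 2 (0.17, adjusted p = 0.044). Higd1a, a small mitochondrial protein, overlapped at 51.5 and 44.8 against 47.3 and 50.8 TPM.

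A list of 40 further hypoxia targets, of which 33 were kept, went both ways. In Tet2 KO 10 were higher, 7 lower and 16 not called, with a median change of 0.00. Over all kept genes 18.9% were called higher and 11.6% lower, with a median of 0.04. Stc2, a secreted glycoprotein, rose from 53.5 and 54.5 to 84.9 and 85.6 TPM (0.65), Plod2, a collagen lysyl hydroxylase, from 32.6 and 35.1 to 52.7 and 54.4 TPM (0.65), and Car12, a carbonic anhydrase, from 4.25 and 4.41 to 9.07 and 9.72 TPM (0.96). These 3 genes had adjusted p from 3.7e-04 to 0.0011. Of 14 other kept glycolytic isozymes and regulators 2 were higher and 2 lower, among the latter the ADP-dependent glucokinase Adpgk (-0.50, adjusted p = 0.0012) and Tigar, a fructose-2,6-bisphosphatase (-0.26, adjusted p = 0.049).

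**Figure D5:**
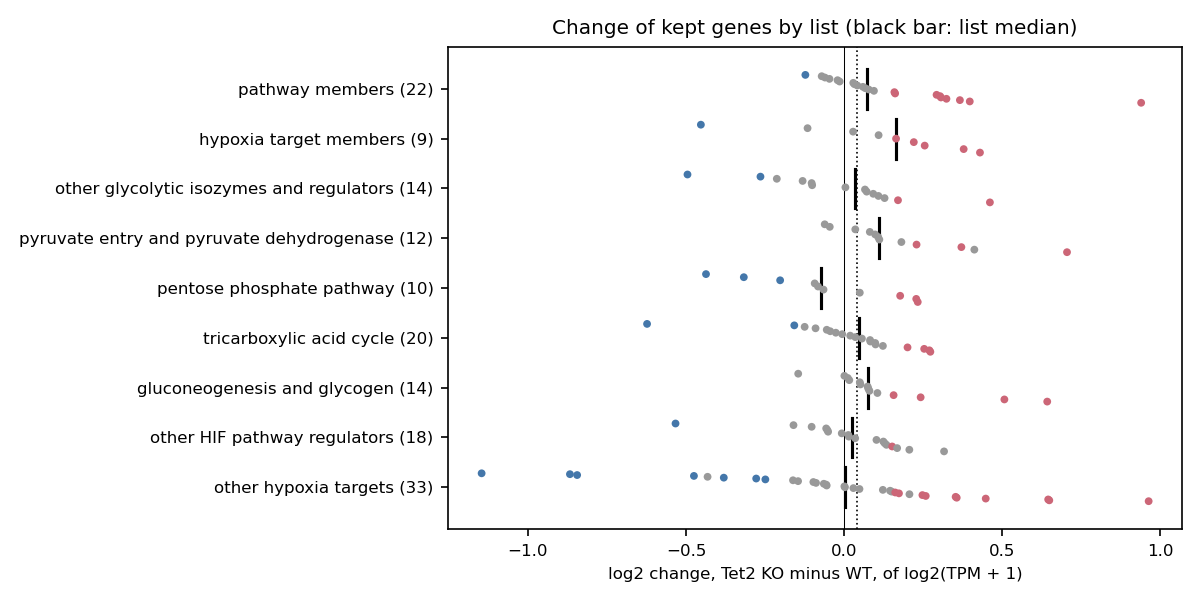
Change of each kept gene on the log2(TPM + 1) scale, Tet2 KO minus WT, in the pathway and hypoxia target members and in 7 further lists, with the number kept in brackets (red, called higher; blue, called lower; grey, not called). The black bar is the list median and the dotted line the median of all kept genes. Hypoxia target members have a median of 0.16 and the further hypoxia targets of 0.00, with genes on both sides.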

How the data were processed

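RNA was measured in 4 libraries, 2 WT and 2 Tet2 KO, grouped by the sample titles. The authors deposited a single table of 24589 entries whose unit was read from its values: each column has the same total and low values share no common step, so they were used as TPM. STAR, RSEM and mm10 are named in the submitters' processing notes. The sources used here name no version, annotation or strand setting. TPM keep no read depth, so no counting interval was given. The 92 ERCC spike-ins were left out of tests, and 27 date-like names were not named.

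The deposited TPM were transformed as log2(TPM + 1) and fitted with limma 3.58.1 in R 4.3.3 with a variance trend and no replicate block (2 residual and 3.51 prior degrees of freedom), after a filter of 1 TPM in 2 libraries, which the leave-one-out fits kept. The fit was tried on simulated data whose noise had the form that the fit assumes. That trial cannot speak to library scaling or to what the replicates are. The members and lists were chosen with earlier results of these data known. Per-library values were given for called members, the leading member of each role and isozymes, and for at most 4 genes of each further list, those with the smallest p. Gene positions came from GENCODE M21 on GRCm38. Shares were compared with exact permutation tests. Alternatives were other scalings, filters, pseudocounts and variance models, a replicate block and leaving out each library. After seeing the data, a crossed block and sums with near-identical copies were added.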

Additional observations from a re-analysis of the deposited data

How the results depend on the processing

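Of 17 called members, 4 (Slc2a3, Pfkm, Ankrd37 and Pfkfb4) kept their call under all 17 alternatives, and 13 lost it under at least 1. The direction of the Aldoa change turned with quantile scaling (-0.014). With spike-in scaling 2108 genes and 5 members were called. Leaving out a library gave 1015 to 2905 called genes and 7 to 17 called members, against 3606 and 17. The pathway median (0.072) was -0.044 with spike-in scaling, 0.015 with quantile scaling, 0.027 with trimmed-mean scaling and 0.037 with TPM rescaled without ERCC and granulocyte markers, and ranged from 0.048 to 0.099 when a library was left out. The target median (0.164) was 0.048, 0.185, 0.119 and 0.129 under the same settings, 0.178 with TPM rescaled without ERCC and Rn45s, and 0.128 to 0.202 when a library was left out. The cause was not tested. With the replicate block 3071 genes and 14 members were called. The replicate numbers are not stated to mark a shared origin, and same-numbered deviations correlated at r = -0.114 over kept genes. A crossed block called 3463 genes and 16 members. The other filters, pseudocounts and variance models called 13 to 17 members. TPM hide depth, so precision of low members is unknown.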

Other observations

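Genes next to glycolysis were called in both directions. Of all kept genes 18.9% were called higher and 11.6% lower. The 3 lists below are short, and nothing is read from their counts. Of 10 kept genes of the pentose phosphate pathway, which branches from glucose-6-phosphate and yields NADPH, 3 were higher and 3 lower in Tet2 KO. The lower genes included the cytosolic NADPH-producing dehydrogenases Pgd and G6pdx, while H6pd, their relative in the endoplasmic reticulum, was not called (-0.09, adjusted p = 0.22). Pgd had 469 and 465 TPM in WT and 345 and 345 TPM in Tet2 KO (-0.44, SE 0.029, adjusted p = 6.2e-04), and G6pdx had 217 and 229 TPM in WT and 173 and 185 TPM in Tet2 KO (-0.32, SE 0.047, adjusted p = 0.0071). Transaldolase (Taldo1) was lower by 0.20 on the log2 scale, and Prps1, which makes the ribose donor of nucleotides, was higher by 0.23. The summed TPM of the list was 2134 and 2161 in WT and 1907 and 1924 in Tet2 KO.

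Of 20 genes of the tricarboxylic acid cycle, all kept, 4 were higher and 2 lower. Idh1, the cytosolic isocitrate dehydrogenase, which makes NADPH and 2-oxoglutarate, fell from 219 and 222 to 143 and 142 TPM (-0.62, SE 0.031, adjusted p = 2.9e-04). Its mitochondrial relative Idh2 rose from 209 and 206 to 248 and 252 TPM (0.27, SE 0.031, adjusted p = 0.0033), as did Idh3g (0.27) and Idh3b (0.20). Of 14 kept genes of gluconeogenesis and glycogen, 4 were higher and none lower. They were led by Pck2, the mitochondrial phosphoenolpyruvate carboxykinase, at 76.3 and 72.5 TPM in WT and 115 and 119 TPM in Tet2 KO (0.64, SE 0.042, adjusted p = 5.9e-04), and by Fbp1, which reverses the phosphofructokinase step, at 21.5 and 23.3 against 32.3 and 32.1 TPM (0.51, SE 0.054, adjusted p = 0.0027). These lists were described by counts only, without a test over the list.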
